A study of Mus musculus with 6 samples.

Results

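Membrane transporters of the ATP-binding cassette (ABC) superfamily and of the organic ion and bile acid carrier families were examined on 6 single-colour microarrays of hepatic stellate cells, which in the healthy liver lie along the sinusoids and store retinoids. Of 16446 different gene symbols on the arrays, 79 belonged to these families. They were chosen by symbol alone: Abca to Abcg followed by a digit, and Slco, Slc22a and Slc10a, with Abcc9 and Slc10a6 left out. Each was read by 1 probe. There were 3 arrays of Sept4 knockout cells, from mice lacking the septin gene Sept4, a filament-forming GTP-binding protein, and 3 of wild-type cells. In both genotypes liver cirrhosis had been induced with carbon tetrachloride (CCl4), so no array shows uninjured liver. Strain, age, sex, the kind of deletion and the number of mice behind an array are not given in the labels.

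ABC transporters are membrane proteins that use ATP to move lipids, conjugates, drugs, peptides or heme compounds across membranes, mostly outwards from the cytosol. Members of the Abce and Abcf groups keep the ATP-binding domains but have no membrane part, and act on ribosomes. Slco proteins (organic anion transporting polypeptides) and Slc22a proteins (organic cation, anion and carnitine transporters) take up small organic ions without using ATP directly, and Slc10a proteins carry bile acids or steroid sulfates with sodium, apart from several orphans. In liver these families are best known in hepatocytes, where they make up the uptake and canalicular export of bile acids and bilirubin conjugates, and several of them also act in macrophages and endothelium.

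The arrays gave a normalised log2 signal for 23473 probes, with array medians of 5.02 throughout. Between 940 and 1255 probes shared the bottom value of their array. Over all probes, Pearson correlations were 0.981 to 0.982 between knockout arrays, 0.986 between wild-type arrays, and 0.967 to 0.971 across the genotypes. Precision is limited by 3 arrays per genotype. The labels do not say whether each array had its own cell isolation, and the p-values rest on an array-to-array spread that may be technical. Whether the genotypes were processed together is not given either, so processing and genotype cannot be told apart. Sept4 was not analysed here, since no probe carries its name, and the genotypes were therefore not checked on the deleted gene. The cells are named here as the labels name them. Of 16 listed stellate cell markers 15 were measured, and their mean signals ran from the brightest, Vim, at 15.81 in knockout cells and 15.21 in wild-type cells, to the dimmest, Gfap, at 2.21 in knockout cells and 1.75 in wild-type cells. Lrat, which makes retinyl esters, averaged 7.46 in knockout cells and 5.05 in wild-type cells, and Ngfr and Vipr1 were dim. Markers of other liver cells were also measured above the lowest value, among them the macrophage genes Cd5l, at 11.50 in knockout cells and 11.01 in wild-type cells, and Marco, at 10.45 in knockout cells and 10.52 in wild-type cells. Signals of different probes cannot be set against each other, so these values do not give the purity of the cells. Of the 15 stellate cell markers, 9 were higher and 1 lower in knockout cells, with a median difference of 0.61. That median was 0.36 after quantile normalisation. At the same threshold, an adjusted p of 0.05, 26.7% of all probes were higher and 16.0% lower, also for the marker counts below. Of probes with a mean signal of 6 to 8, 64.4% passed in either direction, and at 8 and over 70.3%. The stellate cell list had a median signal of 6.95 and the myofibroblast list 10.7. Signals of each marker list were summed on the linear scale and are given as log2. The brightest probes therefore govern a sum, and list medians are given beside it. The stellate cell sum was 16.2 to 16.3 in knockout arrays and 15.5 to 15.6 in wild-type arrays. Of 11 myofibroblast markers, genes of the activated state, 2 were higher and 9 lower. Their median difference was -1.20, or -1.34 after quantile normalisation. Their sums were 15.7 in knockout arrays and 15.9 to 16.0 in wild-type arrays. Their part in the transporter differences was not tested. In a preparation of this kind, fewer cells of a type and less RNA per cell cannot be told apart.

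Of the 79 transporter genes, 18 were higher and 5 lower in knockout cells at an adjusted p of 0.05 in limma, a linear model with moderated variances adjusted over all probes. Across all probes 26.7% were higher and 16.0% lower at the same threshold, or 42.7% in either direction, so the 23 transporter genes (29.1%) were fewer than the array as a whole gave. Over the 16446 different symbols, each read by its brightest probe as the 79 genes were, 29.4% were higher and 14.9% lower. The largest rises were in Abca8a, Abcc2, Abca7 and Abcd2 and the largest falls in Abca3 and Slco2a1. Of the rises 4 reached a 2-fold difference, and of the falls 2. The median log2 difference of the 79 genes was 0.21, against 0.12 over all probes and 0.14 over all different symbols. Of the 79 genes 55 had a positive difference (69.6%, against 58.1% of all probes and 60.1% of all symbols). The 3 knockout values lay wholly above or below the 3 wild-type values for 38 genes (48.1%, against 56.2% of all probes), and these included all 23 that passed.

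**Figure D1:**
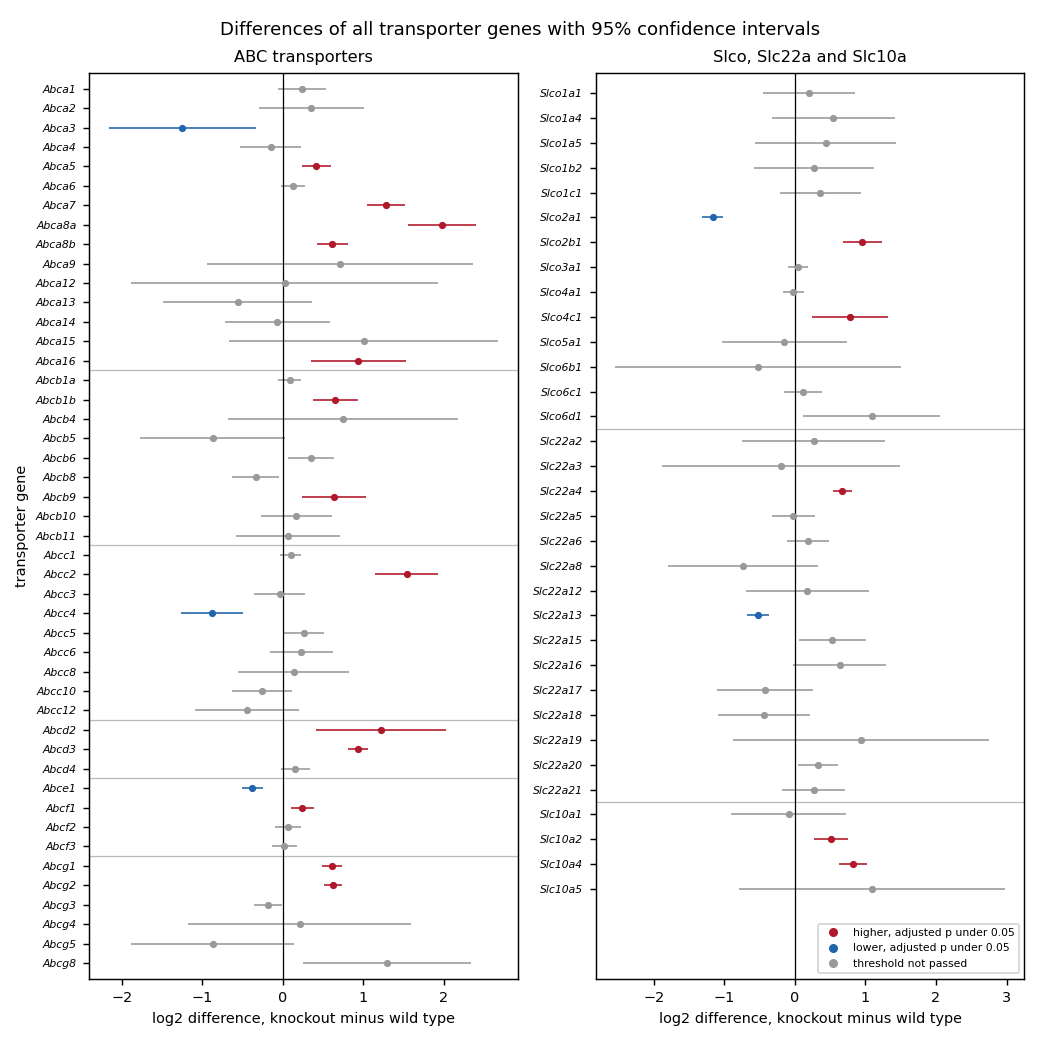
Log2 difference (knockout minus wild type) of each of the 79 transporter genes, with its 95% confidence interval from limma. Grey lines separate the families. Intervals are widest for genes with low signals, and 18 genes passed as higher (red) and 5 as lower (blue).

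Many of these genes were read by dim probes, and the share that passed followed the signal. By mean signal over the 6 arrays, 1 of 18 transporter genes under 2 passed, against 12.7% of all probes in that class, and 1 of 16 between 2 and 4, against 19.1%. Between 4 and 6, 9 of 25 passed (44.2% of all probes), between 6 and 8, 7 of 13 (64.4%), and at 8 and over 5 of 7 (70.3%). In all, 34 of the 79 genes lay under 4, and 2 of them passed, against 16.2% of all probes in that range. The other 45 lay at 4 and over, and 21 of these passed, or 46.7%, against 59.7% of all probes there. The median standard deviation of the wild-type arrays was 0.48 for transporter genes with a signal under 2, and 0.05 for those at 8 and over. There were 12 transporter genes at the lowest value on at least 1 array, and 3 of them, Abca13, Abca14 and Slco6c1, on all knockout arrays, so for these the knockout level is only a bound. A low signal can come from the probe as well as from the RNA. Of the other carriers on the arrays, 24 of 53 amino acid and neurotransmitter transporter genes passed (14 higher, 10 lower) and 17 of 29 mitochondrial carrier genes (13 higher, 4 lower); the differences between these groups and the 79 genes were not tested.

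**Figure D2:**
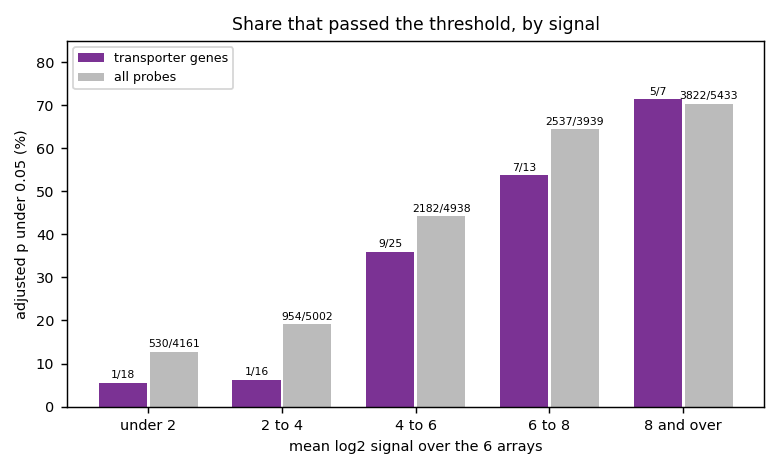
Percentage of transporter genes (purple) and of all probes (grey) that passed an adjusted p of 0.05, in 5 classes of mean log2 signal over the 6 arrays. Numbers above the bars are those passed over those in the class. In both sets the share is lowest under a signal of 2, at 1 of 18 transporter genes, and highest at 8 and over, at 5 of 7.

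Several of the genes lie side by side in families of close relatives, and the stretches upstream of their starts are shown here because the differences of neighbouring relatives were unlike in size. The sequences are the 250 bases before the annotated start in RefSeq (GRCm38.p6), read 5′ to 3′ on the gene's strand. Capitals mark TATA boxes (TATAAA), GC boxes (GGGCGG, bound by Sp1 family factors), CCAAT boxes (CCAAT), AP-1 elements (TGANTCA) and antioxidant response element cores (TGACNNNGC), searched on both strands, and no matches overlapped. Abca8a and Abca8b lie together on chromosome 11, at chr11:110095938-110096187 and chr11:109995846-109996095 on the minus strand. Abcb1b and Abcb1a, the mouse genes of P-glycoprotein, lie on chromosome 5, at chr5:8797897-8798146 and chr5:8566841-8567090 on the plus strand. Slc22a4 and Slc22a5 lie on chromosome 11, at chr11:54028105-54028354 and chr11:53891704-53891953 on the minus strand. Slco2a1, at chr9:103008237-103008486 on the plus strand, is shown because it was the most precisely measured of the falls of at least 2-fold.
Abca8a: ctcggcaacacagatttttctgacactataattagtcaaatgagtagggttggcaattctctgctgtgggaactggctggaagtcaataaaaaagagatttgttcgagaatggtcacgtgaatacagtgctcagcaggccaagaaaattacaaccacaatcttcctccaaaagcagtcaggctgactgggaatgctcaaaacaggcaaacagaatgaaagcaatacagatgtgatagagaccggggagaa
Abca8b: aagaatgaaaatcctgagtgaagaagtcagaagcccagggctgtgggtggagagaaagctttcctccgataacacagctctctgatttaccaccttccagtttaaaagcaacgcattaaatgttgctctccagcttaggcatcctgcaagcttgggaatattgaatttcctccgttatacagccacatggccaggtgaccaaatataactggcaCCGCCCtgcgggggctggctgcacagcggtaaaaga
Abcb1b: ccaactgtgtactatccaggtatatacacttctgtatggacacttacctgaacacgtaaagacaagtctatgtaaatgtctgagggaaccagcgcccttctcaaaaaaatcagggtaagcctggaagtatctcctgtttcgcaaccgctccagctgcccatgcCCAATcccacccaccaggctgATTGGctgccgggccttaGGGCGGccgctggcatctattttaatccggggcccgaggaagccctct
Abcb1a: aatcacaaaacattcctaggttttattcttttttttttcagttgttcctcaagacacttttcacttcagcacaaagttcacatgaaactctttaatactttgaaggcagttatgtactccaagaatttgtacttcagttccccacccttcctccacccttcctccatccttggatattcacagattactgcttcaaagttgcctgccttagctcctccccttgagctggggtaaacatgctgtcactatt
Slc22a4: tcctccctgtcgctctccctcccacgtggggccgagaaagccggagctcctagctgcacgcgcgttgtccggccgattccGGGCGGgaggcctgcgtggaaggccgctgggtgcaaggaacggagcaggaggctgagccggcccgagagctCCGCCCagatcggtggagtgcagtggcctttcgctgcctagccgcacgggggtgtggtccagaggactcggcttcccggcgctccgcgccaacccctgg
Slc22a5: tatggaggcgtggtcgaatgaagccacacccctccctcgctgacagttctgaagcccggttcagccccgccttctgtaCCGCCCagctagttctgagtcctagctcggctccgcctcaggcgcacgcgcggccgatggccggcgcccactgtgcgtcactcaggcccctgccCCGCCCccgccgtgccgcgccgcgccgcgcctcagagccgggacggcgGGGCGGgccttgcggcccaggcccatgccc
Slco2a1: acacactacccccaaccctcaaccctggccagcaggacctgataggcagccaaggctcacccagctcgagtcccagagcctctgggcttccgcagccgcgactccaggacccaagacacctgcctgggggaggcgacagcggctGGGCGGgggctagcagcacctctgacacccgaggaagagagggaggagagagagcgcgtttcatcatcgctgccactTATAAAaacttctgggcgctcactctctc
Within these 7 windows, Abcb1b held 2 CCAAT boxes and 1 GC box, whereas none of the searched motifs was found in Abcb1a. Slc22a4 held 2 GC boxes and Slc22a5 held 3, in windows of 71.2% and 73.6% G and C. Abca8b held 1 GC box and Abca8a none of the motifs. Slco2a1 held a TATA box 29 to 24 bases before its start and 1 GC box. Among all 32851 RefSeq windows of this length, 12.4% held a TATA box, 32.7% a GC box and 33.8% a CCAAT box. Windows were found for 65 of the 79 genes, and a GC box was present in at least 1 window of 10 of 16 genes that were higher, 3 of 5 that were lower and 11 of 44 that did not pass. A TATA box was present for 0 of 16, 1 of 5 and 9 of 44, and a CCAAT box for 5 of 16, 1 of 5 and 13 of 44. An antioxidant response element core was present for 2 of 16, 1 of 5 and 4 of 44. An AP-1 element was present for 1 of 16, 0 of 5 and 1 of 44. These counts take any window of a gene, and 10 genes had several, whereas the shares over all windows count each window. Genes that did not pass were also often dim, since 32 of the 34 transporter genes with a signal under 4 did not pass. Such a match describes the letters only, and was not tested against the response.

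The Abca family, whose full-length members mostly move cholesterol, phospholipids and retinoids, had 5 of 15 genes higher and 1 lower, with a median difference of 0.35. Abca8a, related to a human transporter linked to cholesterol efflux, had log2 signals of 6.18, 5.91 and 6.01 in knockout cells and 3.83, 3.96 and 4.37 in wild-type cells. The groups were far apart, and the difference of 1.98 ± 0.17 (SE), or 3.94-fold, was the largest among the 79 genes, with an adjusted p of 0.00101. Abca7, which exports phospholipid and is needed for phagocytosis, gave 8.30, 8.15 and 8.12 in knockout cells and 6.90, 7.05 and 6.80 in wild-type cells. All knockout values were above all wild-type values, by 1.28 ± 0.09 (SE), or 2.42-fold, with an adjusted p of 0.000753. Abca8b rose by 0.62 ± 0.08 (SE) and Abca5, a lysosomal member, by 0.41 ± 0.07 (SE), with adjusted p-values of 0.00278 and 0.00746.

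Abca3, which fills the lamellar bodies of lung alveolar cells with surfactant lipid, was the one member of the family that fell. Its signals were 1.29, 2.44 and 2.53 in knockout cells and 3.36, 3.23 and 3.42 in wild-type cells. The knockout arrays were widely spread and dim, and Abca3 fell by 1.25 ± 0.36 (SE) on the log2 scale (adjusted p = 0.0410). It did not pass without any 1 of the wild-type arrays or without knockout array 2, at adjusted p-values of 0.0575 to 0.112. Abca16, found in rodents, read 1.76, 1.37 and 1.36 in knockout cells and 0.21, 0.96 and 0.51 in wild-type cells. These values are close to the lowest on the arrays, and the difference of 0.94 ± 0.23 (SE), with an adjusted p of 0.0259, did not pass after quantile normalisation (0.65, adjusted p = 0.0860), after cyclic loess (0.68, adjusted p = 0.0665) or with a trended and robust prior (adjusted p = 0.206). Nor did it pass without wild-type array 1 or 3 or any 1 knockout array, at adjusted p-values of 0.0541 to 0.0798. Abca1, the cholesterol and phospholipid exporter that loads apolipoprotein A-I, did not pass: it read 5.84, 5.86 and 6.09 in knockout cells and 5.83, 5.51 and 5.72 in wild-type cells. The groups nearly touched, and the 95% confidence interval of the difference of 0.24 ran from -0.06 to 0.54, with an adjusted p of 0.158; with a trended and robust variance prior it passed, at 0.0336. The other 8 members that did not pass had differences of -0.56 to 1.0.

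Among the 79 genes, 10 groups of directly neighbouring genes held 26 genes, and 5 of these groups held at least 1 gene that passed. The group with the most such genes was the Abca row on chromosome 11, in the order Abca8b, Abca8a, Abca9, Abca6 and Abca5. There Abca8b, Abca8a and Abca5 rose and none fell, while Abca6 differed by 0.13 (95% confidence interval -0.02 to 0.28) and the dim Abca9 by 0.71 (-0.95 to 2.36). Within each array, the log2 ratio of Abca8a to Abca8b was -0.40 to -0.23 in knockout cells and -1.86 to -1.51 in wild-type cells, so the rise of Abca8a exceeded that of Abca8b by 1.36 ± 0.11 (SE). The ratio of Abca8a to Abca6 differed by 1.85 ± 0.20 (SE). In these and in 3 further pairs from the same groups of neighbours, not all directly adjacent, the groups did not overlap. The exact permutation p was 0.1 for every pair (two-sided), and 0.1 after adjustment over the 5 pairs, which is as low as 3 arrays against 3 can go. Each pair sets a gene that rose beside a relative that rose less or did not pass, and other pairs were not tried. That choice favours separation, so the lack of overlap adds no support. Abca8a and Abca8b are close copies, and whether a probe also reads the other copy was not tested.

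**Figure D3:**
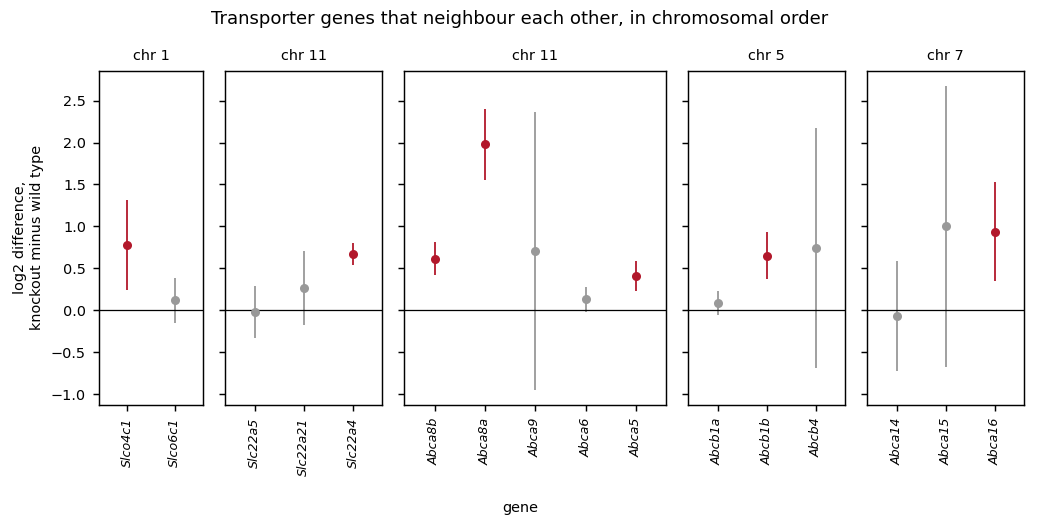
Log2 difference (knockout minus wild type) with 95% confidence interval for the 5 groups of neighbouring transporter genes that held at least 1 gene that passed (red higher, grey threshold not passed), in chromosomal order. On chromosome 11, Abca8a stands at 1.98 between Abca8b at 0.62 and the imprecise Abca9.

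In the Abcb family, which includes drug exporters, peptide transporters and mitochondrial transporters, 2 of 9 genes rose and none fell. Abcb1b, 1 of the 2 mouse P-glycoproteins that export drugs and other hydrophobic compounds, read 5.39, 5.63 and 5.39 in knockout cells and 4.83, 4.67 and 4.96 in wild-type cells. It rose by 0.65 ± 0.11 (SE), or 1.57-fold, with an adjusted p of 0.00747. Its neighbour Abcb1a, the other P-glycoprotein, had 7.71, 7.66 and 7.73 in knockout cells and 7.66, 7.64 and 7.54 in wild-type cells. The arrays were close together and the difference was 0.09 (95% confidence interval -0.06 to 0.23), which turned to -0.02 after quantile normalisation and after cyclic loess. Within arrays the ratio of Abcb1b to Abcb1a was higher in knockout cells by 0.57 ± 0.15 (SE), without overlap of the groups (exact p = 0.1). This pair was chosen as described for the Abca row, so the lack of overlap adds no support.

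Abcb9, which moves peptides into lysosomes, read 4.56, 4.91 and 4.49 in knockout cells and 3.84, 4.01 and 4.21 in wild-type cells. The groups did not overlap, and the difference of 0.64 ± 0.15 (SE) had an adjusted p of 0.0247. It did not pass without wild-type array 1 or 2 or without knockout array 1, at adjusted p-values of 0.0526 to 0.0742. The canalicular transporters of hepatocytes in this family were dim. Abcb11, the bile salt export pump, read 1.87, 2.50 and 2.54 in knockout cells and 2.59, 2.13 and 2.0 in wild-type cells, and the difference was 0.06 (95% confidence interval -0.58 to 0.71). After quantile normalisation and cyclic loess it was -0.06 and -0.07. Abcb4, which flips phosphatidylcholine into bile, read 2.10, 3.53 and 3.34 in knockout cells and 2.50, 1.38 and 2.85 in wild-type cells, with a difference of 0.75 and an interval of -0.69 to 2.18. Both intervals leave room for changes of either sign. Of the mitochondrial and porphyrin-linked members, Abcb6 differed by 0.35 and Abcb8 by -0.34, each without overlap of the groups but above the threshold (adjusted p = 0.0605 and 0.0667), and Abcb10 by 0.17. The remaining member, Abcb5, differed by -0.87 with an adjusted p of 0.105.

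In the Abcc family of conjugate exporters and sulfonylurea receptors, 1 of 9 genes rose and 1 fell. Abcc2, which exports glucuronide and glutathione conjugates such as those of bilirubin into bile, read 5.66, 5.97 and 5.76 in knockout cells and 4.43, 4.35 and 3.98 in wild-type cells. All knockout values lay above all wild-type values, with a difference of 1.54 ± 0.15 (SE), or 2.91-fold, and an adjusted p of 0.00150. Abcc4, an exporter of cyclic nucleotides, prostaglandins and bile acids, read 4.53, 4.31 and 4.83 in knockout cells and 5.34, 5.57 and 5.40 in wild-type cells. The groups were again apart, in the opposite direction, and Abcc4 differed by -0.88 ± 0.15 (SE), with an adjusted p of 0.00796. Abcc1, the exporter of glutathione conjugates and leukotriene C4, had bright and almost equal signals of 11.37, 11.43 and 11.40 in knockout cells and 11.34, 11.34 and 11.24 in wild-type cells. Its difference of 0.10 had a 95% confidence interval of -0.04 to 0.23, and it turned to -0.09 after quantile normalisation and -0.11 after cyclic loess. The other 6 members, Abcc3, Abcc5, Abcc6, Abcc8, Abcc10 and Abcc12, had differences of -0.44 to 0.26 and did not pass.

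Hepatocyte markers were examined beside Abcc2, since its best known site is the hepatocyte. Of 20 listed markers 15 were measured, 5 of them were higher in knockout cells (Ahsg, Cps1, Pck1, Tdo2 and Trf) and 2 lower (Fga and Ttr), and none lay at an array's lowest value. Their summed signal was 11.54 to 11.60 on the log2 scale in knockout arrays and 11.35 to 11.40 in wild-type arrays. Their differences ran from -0.57 to 0.71, with a median of 0.14. The part of hepatocyte RNA in the difference of Abcc2 was not tested. Of 11 markers of cholangiocytes, another site of such transporters, 7 were measured, with Cldn4 lower and none higher and a median difference of 0.002. They summed to 8.54 to 8.58 in knockout arrays and 8.74 to 8.78 in wild-type arrays.

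Peroxisomal members of the Abcd family, which import very long-chain and branched fatty acids as coenzyme A esters, were higher. Abcd3, the abundant 70 kDa peroxisomal membrane protein, read 11.42, 11.42 and 11.38 in knockout cells and 10.52, 10.45 and 10.43 in wild-type cells. Replicates were nearly equal, and the rise of 0.94 ± 0.05 (SE), or 1.91-fold, had an adjusted p of 0.000483. The rise of Abcd3 was 0.76 after quantile normalisation and 0.74 after cyclic loess, and it still passed. Both values lay below its confidence interval of 0.81 to 1.06, so the SE does not cover the choice of normalisation. Abcd2 read 5.37, 5.29 and 5.0 in knockout cells and 4.32, 3.33 and 4.36 in wild-type cells. The groups did not overlap although wild-type array 2 lay apart, and the rise was 1.22 ± 0.32 (SE), with an adjusted p of 0.0311. Without any 1 of the knockout arrays Abcd2 did not pass, at adjusted p-values of 0.0581 to 0.0901. Abcd4, a lysosomal member that handles cobalamin, did not pass at 0.16 (adjusted p = 0.144).

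The ribosome-bound members moved in both directions and by small amounts. Abce1, which splits ribosomes after termination, read 9.43, 9.44 and 9.52 in knockout cells and 9.85, 9.88 and 9.81 in wild-type cells. It fell by 0.38 ± 0.05 (SE) on the log2 scale with an adjusted p of 0.00356, and by 0.54 after quantile normalisation. Abcf1, which assists translation initiation, read 10.14, 10.02 and 10.04 in knockout cells and 9.87, 9.77 and 9.84 in wild-type cells. Its difference of 0.24 ± 0.06 (SE) passed at an adjusted p of 0.0225 but was 0.08 after quantile normalisation (adjusted p = 0.387) and 0.08 after cyclic loess (adjusted p = 0.391). It also did not pass without wild-type array 2 or 3 or without knockout array 1 or 2, at adjusted p-values of 0.0516 to 0.0784. Abcf2 and Abcf3 differed by 0.06 and 0.02.

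Of 6 Abcg genes, whose products work as dimers, 2 rose and none fell. Abcg1, which hands cholesterol to high density lipoprotein, read 8.63, 8.54 and 8.57 in knockout cells and 7.96, 7.96 and 8.01 in wild-type cells. Abcg1 rose by 0.61 ± 0.05 (SE), or 1.52-fold, with an adjusted p of 0.000935. Its rise was 0.50 after quantile normalisation and 0.48 after cyclic loess, inside its confidence interval of 0.48 to 0.73. Abcg2, the exporter of urate, porphyrins and many drugs, read 9.86, 9.84 and 9.82 in knockout cells and 9.23, 9.21 and 9.19 in wild-type cells. Both sets of replicates were within 0.05 of each other, and the rise was 0.63 ± 0.04 (SE), or 1.54-fold, with an adjusted p of 0.000687. Abcg5 and Abcg8, neighbours that form the sterol exporter of bile and gut, were dim and differed by -0.87 and 1.29 with adjusted p-values of 0.139 and 0.0557. Abcg3 and Abcg4 differed by -0.18 and 0.21 and did not pass.

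Macrophages are a known site of Abca1 and Abcg1 in other tissues, and their markers were set beside these genes. Of 16 listed markers of Kupffer cells and macrophages, 13 were measured, Cd5l and Clec4f were higher in knockout cells and C1qa, C1qb, C1qc, Cd14 and Emr1 lower, and none lay at an array's lowest value. The summed signal was 12.49 to 12.56 in knockout arrays and 12.40 to 12.47 in wild-type arrays. It rests largely on the brightest marker, Cd5l, and the median difference of the 13 markers was -0.05. Their part in the rise of Abcg1 was not tested.

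**Figure D4:**
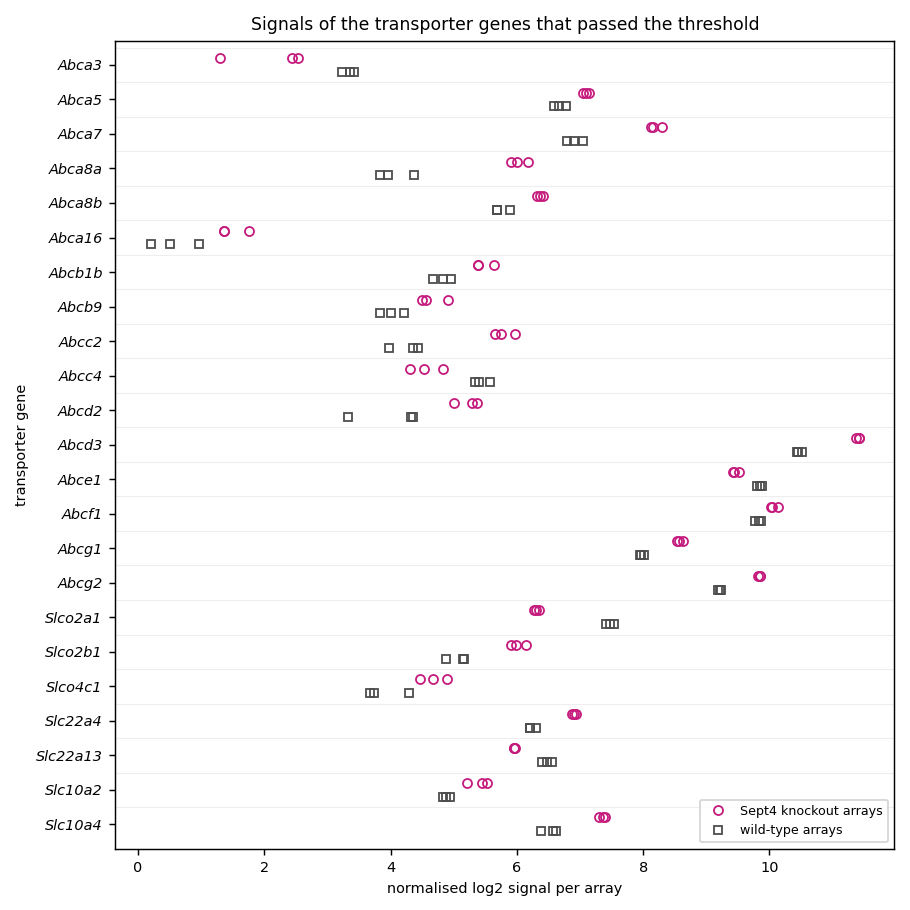
Normalised log2 signals of the 23 transporter genes that passed an adjusted p of 0.05, with 1 symbol per array (circles, Sept4 knockout; squares, wild type). In every gene the 3 circles lie wholly on one side of the 3 squares. Signals of different genes come from different probes and are not to be set against each other.

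Among the 14 Slco genes, 2 rose and 1 fell, and the fall was the most precisely measured of the 3. Slco2a1, the prostaglandin transporter that clears prostaglandins from outside the cell, read 6.36, 6.27 and 6.30 in knockout cells and 7.53, 7.41 and 7.47 in wild-type cells. The groups were more than 1 log2 unit apart, and the difference of -1.16 ± 0.06 (SE), or 2.24-fold lower in knockout cells, had an adjusted p of 0.000460. Slco2b1, which takes up steroid sulfates, read 6.15, 5.99 and 5.91 in knockout cells and 5.14, 5.16 and 4.88 in wild-type cells. It rose by 0.96 ± 0.11 (SE), or 1.94-fold, with an adjusted p of 0.00218. Slco4c1, best known for digoxin and thyroid hormone transport in kidney, read 4.46, 4.89 and 4.67 in knockout cells and 3.74, 3.67 and 4.29 in wild-type cells. The rise of 0.78 ± 0.21 (SE) had an adjusted p of 0.0350, and it did not pass without wild-type array 1 or 2 or without any 1 of the knockout arrays (adjusted p-values of 0.0501 to 0.104).

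The other 11 Slco genes did not pass, with differences of -0.52 to 1.09. The hepatocyte uptake carrier Slco1b2 differed by 0.27 and the related Slco1a1 and Slco1a4 by 0.20 and 0.54, all with dim signals. Slco3a1 and Slco4a1, both bright, differed by 0.05 and -0.02. Slco2a1 is also found in endothelium, whose markers were 12 of 14 measured. Stab1 and Vwf were higher and Emcn and Flt1 lower in knockout cells, and Vwf lay at the lowest value on at least 1 array. The sum was 9.03 to 9.08 in knockout arrays and 9.04 to 9.11 in wild-type arrays, and the median difference -0.01. Flt1 differed by -0.86 and Emcn by -1.63, while the brighter Stab1 differed by 0.73. The part of endothelial RNA in the fall of Slco2a1 was not tested. Lymphocyte and other leukocyte markers were 10 of 12 measured, with 2 higher and 2 lower and a median difference of 0.74. They summed to 7.96 to 8.12 in knockout arrays and 7.82 to 7.98 in wild-type arrays.

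Of 15 Slc22a genes, 1 rose and 1 fell. Slc22a4, which takes up the antioxidant ergothioneine, read 6.88, 6.91 and 6.94 in knockout cells and 6.31, 6.20 and 6.21 in wild-type cells. It rose by 0.67 ± 0.05 (SE), or 1.59-fold, with an adjusted p of 0.000882. Slc22a13, an organic anion transporter known in human kidney for urate and nicotinate, read 5.95, 5.95 and 5.98 in knockout cells and 6.56, 6.40 and 6.48 in wild-type cells. The knockout arrays were nearly equal and all lower, with a difference of -0.52 ± 0.06 (SE) and an adjusted p of 0.00220. Slc22a5 and Slc22a21, the carnitine transporters that lie beside Slc22a4, differed by -0.02 (95% confidence interval -0.33 to 0.28) and 0.27 (-0.18 to 0.71). Within arrays the ratio of Slc22a4 to Slc22a5 was 2.39 to 2.47 in knockout cells and 1.49 to 1.93 in wild-type cells. The difference was 0.69 ± 0.14 (SE), and the ratio of Slc22a4 to Slc22a21 differed by 0.40 ± 0.20 (SE) (exact p = 0.1 each). Both pairs were chosen as described for the Abca row, so their lack of overlap adds no support. The other 11 members that did not pass included the kidney anion transporters Slc22a6 and Slc22a8, at 0.19 and -0.74, and the organic cation transporters Slc22a2 and Slc22a3, at 0.26 and -0.20. Slc22a15, Slc22a16 and Slc22a20 had groups that did not overlap, with differences of 0.53, 0.64 and 0.32 and adjusted p-values of 0.0735, 0.107 and 0.0701.

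Both Slc10a genes that passed were higher, of 4 measured. Slc10a4, an orphan relative of the bile acid carriers known from synaptic vesicles, read 7.30, 7.37 and 7.39 in knockout cells and 6.63, 6.58 and 6.39 in wild-type cells. Its rise of 0.82 ± 0.08 (SE), or 1.77-fold, had an adjusted p of 0.00138. Slc10a2, the sodium-dependent bile acid carrier of ileum and bile ducts, read 5.45, 5.22 and 5.53 in knockout cells and 4.95, 4.84 and 4.88 in wild-type cells. Slc10a2 rose by 0.51 ± 0.10 (SE), or 1.42-fold, with an adjusted p of 0.0109. Slc10a1, by which hepatocytes take up bile acids, was dim, at 2.68, 2.69 and 2.62 in knockout cells and 2.44, 3.47 and 2.36 in wild-type cells. The knockout values fell inside the wild-type range, which wild-type array 2 widened, and the difference was -0.09 (95% confidence interval -0.91 to 0.73). Without wild-type array 2 it was 0.27, with an adjusted p of 0.0409. Slc10a5 differed by 1.09 with an adjusted p of 0.291.

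Genes that regulate these transporters moved in both directions, with 5 of 18 higher (27.8%) and 5 lower (27.8%), against 26.7% higher and 16.0% lower over all probes. The share higher was thus close to that of the whole array. After quantile normalisation 5 were higher and 6 lower. Rxrg, a retinoid X receptor, rose by 1.78 ± 0.35 (SE) and Nr1h4, the bile acid receptor FXR, by 0.91 ± 0.12 (SE), with adjusted p-values of 0.0121 and 0.00319. Ppargc1a, a coactivator of oxidative metabolism, rose by 1.48 ± 0.34 (SE) on its brighter probe, while a second probe gave 0.69 and did not pass (adjusted p = 0.0693), whereas Ppara, the receptor for fatty acids, differed by -1.49 ± 0.36 (SE). Rxrg, Ppargc1a and Ppara were dim, with means of 3.47, 3.54 and 2.59 in knockout cells and 1.69, 2.06 and 4.07 in wild-type cells, so their sizes are imprecise. The liver X receptor genes Nr1h2 and Nr1h3, sensors of oxysterols for which Abca1 and Abcg1 are known targets, differed by -0.69 (adjusted p = 0.00304) and -0.39 (adjusted p = 0.0410); both are named after their values were seen.

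Of 17 genes of bile acid synthesis and conjugation, 7 were higher (41.2%) and 1 lower (5.88%), and after quantile normalisation 7 were higher and 2 lower, since the racemase gene Amacr then passed at -0.24 (adjusted p = 0.0131). Ch25h, which makes the oxysterol 25-hydroxycholesterol, had a mean signal of 5.38 ± 0.23 in knockout cells and 7.60 ± 0.11 in wild-type cells (SD, n = 3 each), or 4.65-fold lower, with an adjusted p of 0.000574. The oxysterol hydroxylase gene Cyp39a1, the cholesterol hydroxylase gene Cyp46a1 and the sterol 27-hydroxylase gene Cyp27a1 rose by 0.82, 0.81 and 0.71. Among 16 carriers and acceptors of cholesterol 3 were higher (18.8%) and 4 lower (25%). The lipoprotein receptor gene Vldlr differed by -1.08 ± 0.11 (SE) and Npc2, which moves cholesterol out of lysosomes, by -0.56 ± 0.04 (SE), while the apolipoprotein genes Apoa4 and Apoe rose by 0.58 and 0.50. Of 20 other carriers of drugs, nucleosides and organic ions, 6 were higher (30.0%) and none lower, while 6 were higher and 3 lower after quantile normalisation. The nucleoside carrier genes Slc28a2, Slc29a1 and Slc29a3 rose by 0.82, 0.82 and 0.72, and the copper pump gene Atp7b passed with wild-type cells at the lowest value on all 3 arrays, so that level is only a bound.

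Genes that work beside particular ABC members were counted in the same way. Among 20 genes of peroxisome assembly and peroxisomal beta-oxidation, partners of the Abcd transporters, 8 were higher (40.0%) and 1 lower (5.0%). After quantile normalisation 7 were higher and 3 lower, with Decr2 and Hsd17b4, both of beta-oxidation, then passing at -0.25 and -0.28. Acox3, an acyl-CoA oxidase, rose by 1.02 ± 0.24 (SE), catalase (Cat) by 0.93 ± 0.05 (SE) and the import docking gene Pex14 by 0.54 ± 0.08 (SE), while the import receptor gene Pex5 differed by -0.59 ± 0.08 (SE). Among 13 genes of heme and iron-sulfur cluster synthesis, partners of mitochondrial Abcb members, 7 were higher (53.8%) and 2 lower (15.4%), and after quantile normalisation 7 were higher and 3 lower. Cpox, which oxidises coproporphyrinogen, had a mean of 6.68 ± 0.13 in knockout cells and 4.48 ± 0.26 in wild-type cells (SD, n = 3 each), or 4.57-fold higher, with an adjusted p of 0.000730. Haem oxygenase 1 (Hmox1), which breaks heme down, rose by 1.30. Of the synthesis genes, ferrochelatase (Fech) rose by 0.80 and the porphobilinogen synthase gene Alad by 0.70. Of 7 partners of Abce1 and Abcf proteins in ribosome recycling, 3 were higher (42.9%), namely the ribosome rescue genes Hbs1l and Pelo, by 0.63 and 0.59, and the release factor gene Gspt1, by 0.21, which was 0.01 after quantile normalisation (adjusted p = 0.922). After quantile normalisation 2 were higher and 1 lower, the release factor gene Etf1 then passing at -0.31 (adjusted p = 0.00508). Amacr, Decr2, Hsd17b4 and Etf1, like the markers given singly above, are named after their values were seen. The medians of the 7 lists ran from 0.01 to 0.35, against 0.12 over all probes.

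**Figure D5:**
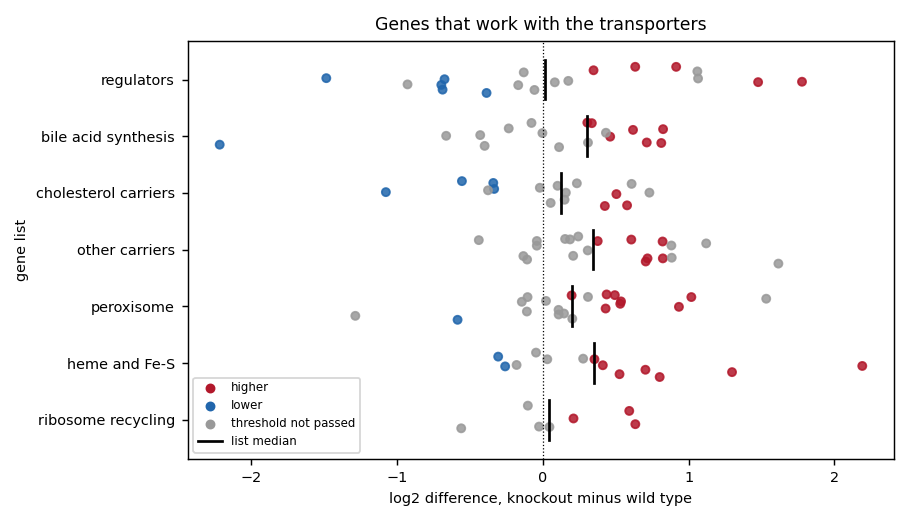
Log2 difference (knockout minus wild type) of each measured gene in 7 lists of genes that regulate or work beside the transporters (red higher, blue lower, grey threshold not passed), with the list median as a black bar. The points farthest out are Ch25h at -2.22 among bile acid synthesis genes and Cpox at 2.19 among heme genes.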

How the data were processed

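The authors deposited normalised log2 signals for 6 arrays; per the labels they were quantile normalised, from total RNA extracted with phenol and chloroform and labelled with Cy5. The values do not share one distribution as that step would give: the medians were alike, but upper quartiles were 7.82 to 7.84 on knockout arrays and 7.70 to 7.73 on wild-type arrays, and the highest values 16.6 to 16.8 on knockout arrays and 15.7 to 15.8 on wild-type arrays. The log base was read from the range of the values. The labels' protocol for labelling speaks of tumour tissue and a kit for microRNA, at odds with the design. How background was corrected is not given in the sources used here. Symbols came from the platform annotation, and all 79 matched RefSeq (GRCm38.p6), which also gave neighbours and upstream sequences.

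Differences are knockout minus wild type, fitted over all 23473 probes with limma 3.58.1 (lmFit, eBayes; R 4.3.3) and no further normalisation, two-sided, with Benjamini-Hochberg adjustment over all probes and a threshold of 0.05. The fit had 4 residual and 1.11 prior degrees of freedom. A gene with several probes is read by the one with the highest mean. Ratios of genes from the same group of neighbours were tested with exact permutation in scipy 1.17.1. Figures used matplotlib 3.10.9. The genes, lists and alternatives were chosen with earlier results of these data known. Named genes are all members that passed, a fixed set of well-known ones (1 of them is not reported here), at least 2 per family, and up to 4 called genes per list by size. Same-numbered arrays of the genotypes did not deviate together (correlations of their deviations of -0.00196 to 0.00775), so the numbers were not used as pairs. On simulated data with 200 of 23473 probes changed, in 10 simulations, the fit found 28.7% of probes shifted by 0.5 log2 units, 53.1% of those shifted by 1 unit and 69.5% at 2 units, with 7.19% of calls false. On the arrays 42.7% of probes passed, a far larger share than was changed in the simulations. The adjustment depends on that share, so these rates do not carry over to the arrays.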

Additional observations from a re-analysis of the deposited data

How the results depend on the processing

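Of the 23 transporter genes that passed, 17 kept their direction and their side of the threshold under each of the 8 other settings and without any 1 array; the exceptions, Abca3, Abca16, Abcb9, Abcd2, Abcf1 and Slco4c1, are described above. Leaving out 1 array gave 15 to 19 higher and 4 to 6 lower transporter genes. With the replicate number as a block, 14 were higher and 5 lower, and Abca3, Abca16, Abcb9, Abcd2, Abcf1 and Slco4c1 did not pass; the numbers did not pair the arrays, and not every array correlated best with its own number. The median difference of the transporter genes, 0.21, was 0.20 after quantile normalisation, 0.15 after cyclic loess, 0.24 without the dimmest 25% of probes, 0.20 after leaving out probes that reached a bottom value, 0.15 with a linear offset at the 10th percentile, 0.24 with array weights, and 0.16 to 0.26 without 1 array. The cause was not tested. Of the genes that did not pass, Abcb1a turned to -0.024 and -0.017, Abcb11 to -0.063 and -0.069, and Abcc1 to -0.087 and -0.11 after quantile normalisation and cyclic loess. Without 1 array, Abcb11 ran from -0.058 to 0.28 and Slc10a1 from -0.29 to 0.27. Quantile normalisation left 16 transporter genes higher and 5 lower, or 76.2% higher of those that passed, against 78.3% as deposited, while the share over all probes moved to 52.5%, against 62.6% as deposited. For all probes together the median difference of 0.12 came down to 0.02 with quantile normalisation and to 0.01 with cyclic loess. No count of transporter genes or probes moved by over 1.5 times. Taking the mean of all probes of a gene changed nothing, since each transporter gene had 1 probe.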
